A study of Homo sapiens with 30 samples.

Results

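Chromosome 19 carries the densest collection of zinc finger genes in the human genome. The genes described here were the protein-coding genes on that chromosome whose symbol starts with ZNF in GENCODE release 29 and that had at least 30 reads on their own strand, summed over all 30 libraries. Of 249 such genes, 228 met the read minimum, out of 60554 gene identifiers counted in all. The shallowest gene kept had 36 reads and the deepest gene left out had 27, and 8 of the 21 left out had no read. The short arm held 71 members and the long arm 157. Where neighbouring starts lay less than 1 Mb apart, runs of at least 5 genes were treated as a cluster, which placed 218 members in 9 clusters and left 10 isolated.

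The libraries came from 5 human T-cell acute lymphoblastic leukaemia lines named Loucy, MOLT-16, PEER, PER-117 and TALL-1. The cells were exposed for 48 h to 1 µM decitabine or to DMSO, the solvent, with 3 libraries in each of the 10 groups. Decitabine is a cytidine analogue that is built into DNA and traps DNA methyltransferases there, so that methylation is lost as cells divide. RNA was counted by sequencing the 3′ ends of transcripts. Each line stands for 1 leukaemia, and nothing in the labels ties the 3 libraries of a group to separate cultures, so p-values measure only the spread between these libraries.

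Most proteins of this family join a row of DNA-binding fingers to a KRAB domain. The KRAB domain recruits TRIM28, a scaffold for the histone methyltransferase SETDB1 and other repressors, and many of these proteins silence transposable elements. The genes arose by tandem duplication, and their promoters often lie in CG-rich DNA, which can itself be methylated. For most members of the family the target genes are not well known.

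Promoter windows from 250 bases before to 50 bases after the gene start were matched by symbol for 204 of the 228 members in RefSeq (GRCh38.p14). CG, the dinucleotide at which DNA is methylated and which reads the same on both strands, was counted in each window. The 5 windows below are shown because their genes carry the contrasts between lines described later. They are written 5′ to 3′ on the gene's strand with each CG in capitals. ZNF836 (chr19:52171572-52171871, minus strand, 14 CG) and ZNF615 (chr19:52008162-52008461, minus strand, 22 CG) had no read in untreated PER-117. ZNF562 (chr19:9675051-9675350, minus strand, 18 CG) was close to absent in Loucy. ZNF835 (chr19:56671708-56672007, minus strand, 29 CG) was on in TALL-1 alone, and ZNF257 (chr19:22052234-22052533, plus strand, 13 CG) in Loucy alone.
ZNF836: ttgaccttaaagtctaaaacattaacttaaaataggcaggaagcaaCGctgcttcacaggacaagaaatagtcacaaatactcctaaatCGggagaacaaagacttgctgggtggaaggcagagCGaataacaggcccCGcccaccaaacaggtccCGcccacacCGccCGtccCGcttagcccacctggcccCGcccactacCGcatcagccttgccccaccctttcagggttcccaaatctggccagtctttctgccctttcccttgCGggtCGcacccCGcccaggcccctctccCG
ZNF615: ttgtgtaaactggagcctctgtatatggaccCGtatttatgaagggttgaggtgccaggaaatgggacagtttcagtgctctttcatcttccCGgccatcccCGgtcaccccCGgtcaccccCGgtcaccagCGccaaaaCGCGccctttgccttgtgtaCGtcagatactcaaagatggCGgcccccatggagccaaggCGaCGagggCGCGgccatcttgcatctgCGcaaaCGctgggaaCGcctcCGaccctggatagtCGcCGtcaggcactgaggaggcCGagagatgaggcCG
ZNF562: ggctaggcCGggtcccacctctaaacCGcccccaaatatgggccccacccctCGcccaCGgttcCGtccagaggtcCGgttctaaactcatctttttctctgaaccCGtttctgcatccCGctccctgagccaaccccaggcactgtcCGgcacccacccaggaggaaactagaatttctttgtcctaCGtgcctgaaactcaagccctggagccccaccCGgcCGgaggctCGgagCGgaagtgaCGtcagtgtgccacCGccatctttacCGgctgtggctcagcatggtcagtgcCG
ZNF835: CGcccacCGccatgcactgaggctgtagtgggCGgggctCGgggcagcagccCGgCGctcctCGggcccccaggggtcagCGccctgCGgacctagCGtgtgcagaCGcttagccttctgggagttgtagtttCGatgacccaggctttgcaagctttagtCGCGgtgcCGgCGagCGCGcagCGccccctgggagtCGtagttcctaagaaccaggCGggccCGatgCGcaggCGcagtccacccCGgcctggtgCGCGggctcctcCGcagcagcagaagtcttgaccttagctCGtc
ZNF257: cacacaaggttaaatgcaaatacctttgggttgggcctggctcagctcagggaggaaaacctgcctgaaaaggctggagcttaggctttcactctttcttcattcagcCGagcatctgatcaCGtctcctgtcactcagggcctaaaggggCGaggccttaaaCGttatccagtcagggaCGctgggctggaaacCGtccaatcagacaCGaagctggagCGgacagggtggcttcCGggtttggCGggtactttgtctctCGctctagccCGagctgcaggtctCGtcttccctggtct

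All 204 windows held at least 1 CG, against 95.8% of the 27305 promoter windows of the same length in the table. The median member window held 20 CG, and the median over all promoters was 14. At least 15 CG stood in 75% of member windows and in 48.8% of all windows. Position along the chromosome went with this count. The cluster at 19.7 to 24.1 Mb of the short arm had a median of 10 CG, and 15.4% of its windows reached 15. The cluster at 51.6 to 53.6 Mb of the long arm had a median of 25, and 96.9% reached 15. No methylation was measured in these files.

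**Figure D1:**
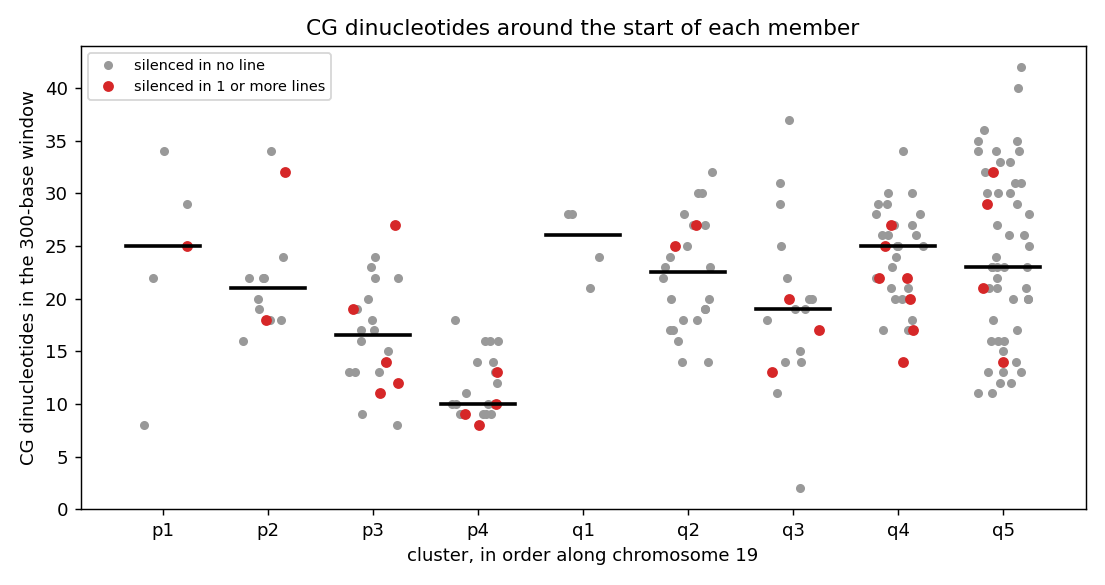
CG dinucleotides in the 300-base RefSeq window around the start of each matched member (vertical axis), by cluster in order along chromosome 19 (horizontal axis, p for the short arm and q for the long arm). Each point is 1 member, red where it was silenced in at least 1 untreated line, and the bar is the cluster median, which is lowest in p4 (10) and highest in q1 (26).

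Each library held between 2197347 and 15391979 reads assigned to genes, and members took 0.265% to 0.449% of them. All 10 T-cell markers (such as CD3D, CD7 and LCK) had reads in every group, with the lowest summed level, 484 to 723 counts-per-million (CPM), in PER-117. The DMSO libraries were screened for transcripts restricted to another line, and 3 of them stood apart. The screen used few genes, 4 each for PEER and MOLT-16, 1 for TALL-1, 6 for PER-117 and 8 for Loucy. These genes were chosen by low decitabine means in the other lines, so mixing in decitabine libraries was not examined. The third DMSO library of MOLT-16 held PEER-restricted genes at a median of 20.2% of their PEER level, the third DMSO library of TALL-1 held the same genes at 14.8%, and the second DMSO library of PEER held MOLT-16-restricted genes at 9.71%. The highest such value in the other 12 DMSO libraries was 0.633%. Counts of silenced members and of members called with decitabine are also given without these 3 mixed libraries where they differ, as are some single calls. All other sets of genes were read with these libraries only.

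Levels are CPM on library sizes scaled by the trimmed mean of M values. Over all 10 groups the median member stood at 8.14 CPM, with quartiles of 3.84 and 18.2 CPM. ZNF genes on other chromosomes had a median of 12.6 CPM and other protein-coding genes of chromosome 19 one of 15.8 CPM. Reads come from the 3′ end, so levels were not divided by transcript length. The most abundant member by far was ZNF428, at 608 CPM. It was followed by ZNF146, which has fingers but no KRAB domain, at 118 CPM and ZNF121 at 104 CPM. ZNF101 stood at 58.4 and ZNF431 at 57.2 CPM. ZNF428 also varied most between libraries of 1 group. Its PEER DMSO libraries held 791, 281 and 874 CPM, with the lowest value in the mixed library.

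Untreated lines differed in most zinc finger genes, as they did in most genes of any kind. Of 213 members with enough reads to test, 181 (85%) differed among the 5 DMSO groups (edgeR quasi-likelihood F test, adjusted p under 0.05). The share was 91.6% of all 15081 genes tested, 89.6% of ZNF genes on other chromosomes and 92.2% of other protein-coding genes of chromosome 19. At least 2.5 CPM was reached by 137 members in all 5 untreated lines and by 203 in at least 1. TALL-1 had the highest summed level, 4178 ± 399 CPM (SD, n = 3), and MOLT-16 the lowest, 3147 ± 247 CPM (SD, n = 3). Loucy had 3808 ± 211.5 CPM (SD, n = 3). The first rank depends on the cluster of the variable ZNF428, at 43.5 to 45.1 Mb of the long arm. That cluster held 1084 ± 229 CPM in TALL-1 and 643 ± 177 CPM in Loucy (SD, n = 3 each). Against the mean of the other lines, TALL-1 had 90 members higher (42.3%) and 21 lower (9.86%). In those directions 28.3% and 21.0% of all genes were called, and 43% and 14% of ZNF genes on other chromosomes. Loucy had 85 higher and 33 lower (39.9% and 15.5%, all genes 35.0% and 26.1%, other ZNF genes 39.4% and 19.5%). MOLT-16 went the other way, with 26 higher and 67 lower (12.2% and 31.5%, all genes 28.5% and 22.0%, other ZNF genes 20.4% and 24.4%). PER-117 had 57 higher and 66 lower (26.8% and 31%, all genes 30.3% and 28.3%, other ZNF genes 24.9% and 34.4%). PEER had 47 higher and 38 lower (22.1% and 17.8%, all genes 27.2% and 19%, other ZNF genes 23.5% and 20.8%).

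A member was called silenced in a line when its DMSO mean lay under 0.25 CPM there while at least 1 other untreated line had at least 2.5 CPM. This rule uses the levels themselves, so its counts are a description with no test. In these bulk samples, fewer cells expressing a gene and less RNA per cell cannot be told apart. PER-117 had 26 silenced members, 12.9% of those on in another line, against 9.93% of all protein-coding genes and 12% of ZNF genes on other chromosomes. MOLT-16 had 11 (5.45%, all protein-coding genes 2.63%) and PEER 8 (3.96%, all protein-coding genes 2.57%). TALL-1 had 6 (3.02%) and Loucy 4 (2.05%), with 3.99% and 5.63% of all protein-coding genes. Without the 3 mixed libraries the counts were 27 in PER-117, 14 in MOLT-16, 9 in PEER, 7 in TALL-1 and 4 in Loucy. Shares of all protein-coding genes were not computed in that setting. In PEER, the reads of the 5 silenced members that had any all came from the mixed library.

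In all, 34 members were silenced in at least 1 line, 22 of them in 1 line only. The genes ZNF257, ZNF285 and ZNF835 were each on in a single line. ZNF257 had 16.3, 14.1 and 17.2 CPM in the Loucy DMSO libraries, and the highest of the other 12 DMSO libraries had 0.429 CPM. ZNF835 had 6.87, 6.89 and 5.19 CPM in TALL-1 and no read in any other DMSO library. ZNF285 had 3.80, 2.82 and 3.45 CPM in PER-117, the line with the most silenced members. No pair of these 3 genes shared its one expressing line. ZNF626, ZNF471 and ZNF135 were silenced in 3 lines each. ZNF135 had 16.5, 22.9 and 14.3 CPM in TALL-1 and 4.41, 6.30 and 4.54 CPM in PEER, and no read in Loucy or PER-117.

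**Figure D2:**
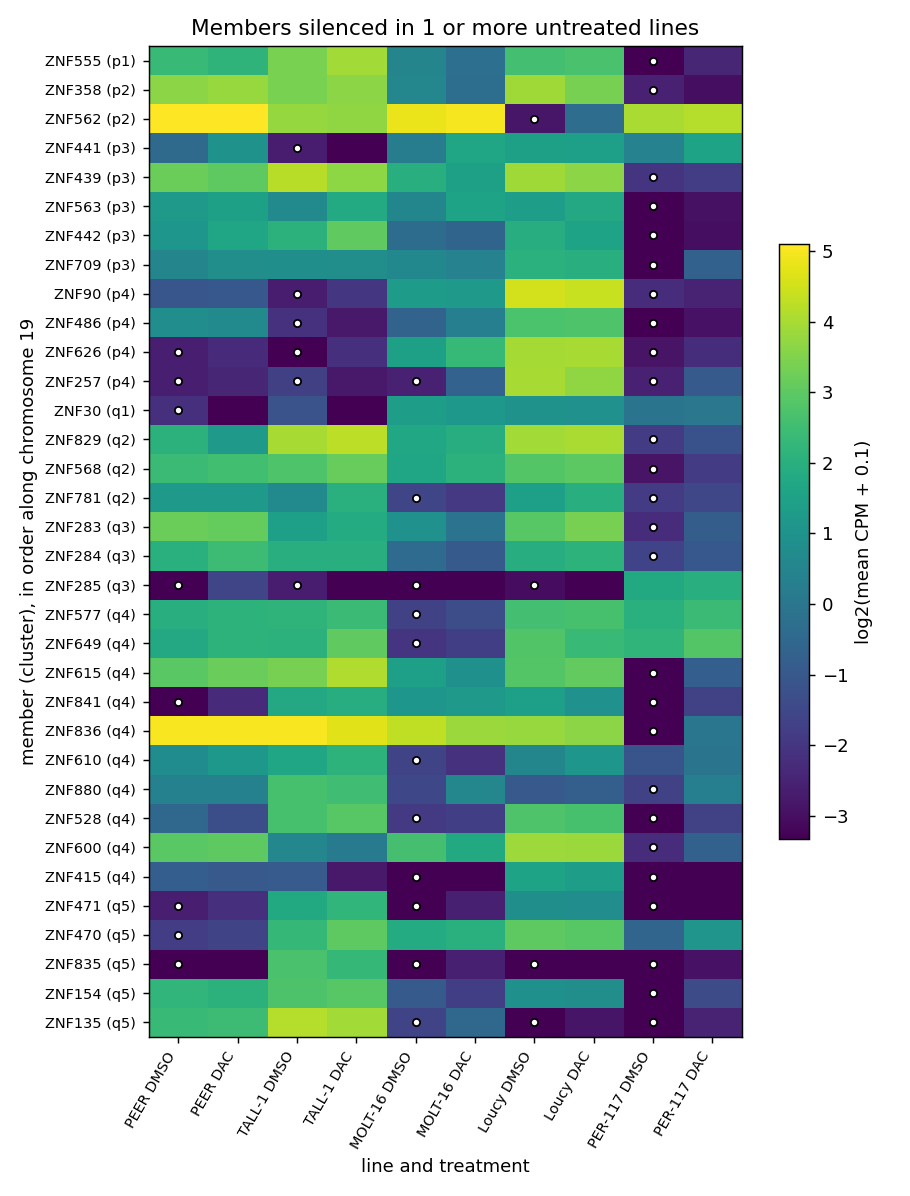
Mean level of the 34 members silenced in at least 1 untreated line, in order along chromosome 19 (rows, cluster label in brackets), in each line with DMSO or decitabine (DAC; columns). Colour is log2(mean CPM + 0.1) and a white dot marks a silenced group; the PER-117 DMSO column has 26 dots and most of its rows stay dark with decitabine.

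Silenced members of PER-117 lay in 8 of the 9 clusters. The cluster at 51.6 to 53.6 Mb of the long arm held 7 of them, among 35 members on in another line. The clusters at 11.5 to 12.6 Mb and 19.7 to 24.1 Mb of the short arm and at 55.5 to 58.5 Mb of the long arm held 4 each. Their members on in another line numbered 18, 26 and 55, so the share in the cluster at 11.5 to 12.6 Mb was no lower. Silencing did not cover long runs of neighbours. Only 4 adjacent pairs of members were both silenced in PER-117, namely ZNF563 with ZNF442, ZNF90 with ZNF486, ZNF829 with ZNF568, and ZNF880 with ZNF528. Among the 52 neighbouring positions of the silenced members, 31 were at 2.5 CPM or more in the same untreated cells. The silenced PER-117 members with a promoter window had a median of 20 CG, and members silenced in no line had 21. In TALL-1 the 6 silenced members had a median of 11.5 CG, and 4 of them belong to the CG-poor cluster at 19.7 to 24.1 Mb.

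Of the members silenced in PER-117, 5 were on in all 4 other lines. ZNF836 (chr19:52153864-52171643) was the most abundant of them. It had no read in the 3 PER-117 DMSO libraries, while the other 12 DMSO libraries lay between 11.2 CPM (a Loucy library) and 40.1 CPM (a PEER library). Against PEER this was at least 298.5-fold lower, taking 3 reads over the group as the limit that a count of 0 allows. ZNF615 (chr19:51991332-52008230) also had no read in untreated PER-117 and 10.2 CPM in TALL-1, at least 94.8-fold more. ZNF439 had 18.2 CPM in TALL-1 and 0.144 CPM in PER-117. ZNF829 had 15.8 CPM in TALL-1 and 0.176 CPM in PER-117, and ZNF568, whose mouse counterpart represses a placental Igf2 transcript, had 0.0373 CPM in PER-117 against 7.13 CPM in Loucy.

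Other lines had their own gaps. In MOLT-16 the neighbours ZNF577 and ZNF649 were silenced while all 4 other lines had at least 3.30 CPM of each. The MOLT-16 DMSO libraries of ZNF577 held 0, 0 and 0.640 CPM, and those of ZNF649 held 0, 0 and 0.426 CPM. All of these reads lay in library 3, the mixed one. In Loucy, ZNF562 (chr19:9641808-9675086) had 0, 0.0584 and 0.0683 CPM. The other 12 DMSO libraries held 11.8 to 42.8 CPM of it, so the groups did not overlap. This gap was read on the gene's own strand. ZNF561-AS1, an antisense gene, shares exon sequence with ZNF562 on the opposite strand, and with strand ignored ZNF562 was no longer silenced in Loucy.

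Decitabine changed few members, and the number depended on the line. PER-117 had 14 members higher and 2 lower, where 8.67% and 3.16% of all genes were called in those directions. TALL-1 had 15 higher and 3 lower (all genes 6.74% and 6.12%). Loucy had 4 higher and 2 lower (all genes 10.6% and 4.13%). PEER had 1 higher and 0 lower (all genes 3.54% and 0.961%) by edgeR, with 9 higher and 7 lower at an unadjusted p under 0.05 and 0 lower by DESeq2. MOLT-16 had 0 higher and 2 lower (all genes 2.19% and 1.01%) by edgeR, with 10 higher and 12 lower at an unadjusted p under 0.05 and 1 higher by DESeq2. Without the 3 mixed libraries MOLT-16 had 5 higher and 11 lower, Loucy 9 and 6, PER-117 21 and 3, and TALL-1 10 and 1. Shares of all genes were not computed in that setting, so these counts cannot be set against the shares above. Counts also rose in Loucy and PER-117, where no mixed DMSO library was found. The count of 15 rises in TALL-1 was 8 or 9 without library 1 or 3 of either treatment, and the 14 of PER-117 were 9 without its first or second DMSO library.

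**Figure D3:**
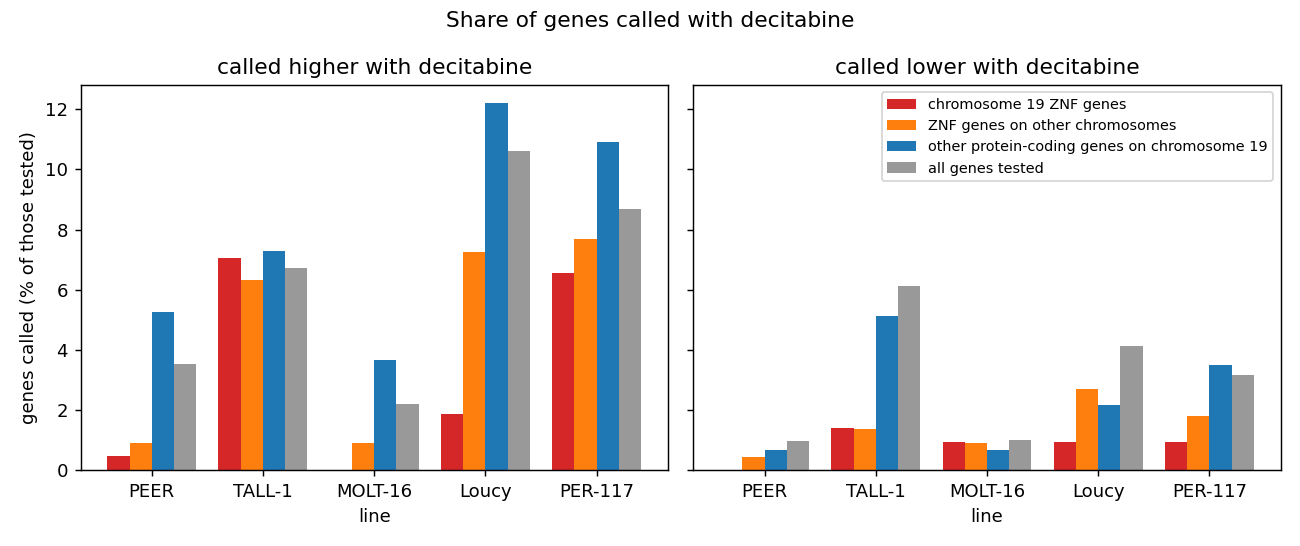
Percent of tested genes called higher (left) or lower (right) with decitabine in each line, for the chromosome 19 ZNF genes and 3 other sets of genes. In Loucy 1.88% of members were called higher against 10.6% of all genes, while in TALL-1 and PER-117 the shares were 7.04% and 6.57% against 6.74% and 8.67%.

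Most members did not pass the test, and the signs of their changes were counted as a description. In PER-117, 156 of 213 members (73.2%) had a log2 change above 0 with a median of 0.19, against 55.5% and a median of 0.05 over all genes. In TALL-1, 135 members (63.4%) did, with a median of 0.16, against 48.1% of all genes. ZNF genes on other chromosomes had shares of 63.3% in PER-117 and 65.2% in TALL-1. The medians of the members were 0.01 in PEER, -0.03 in MOLT-16 and -0.05 in Loucy. By position, the share of tested members with a positive change in PER-117 ran from 55% (11 of 20) in the cluster at 11.5 to 12.6 Mb of the short arm to 5 of 5 in the cluster at 34.7 to 35.0 Mb of the long arm. The cluster at 51.6 to 53.6 Mb had 32 of 36. In TALL-1 the shares ran from 40% (2 of 5) in the cluster at 34.7 to 35.0 Mb to 83.3% (10 of 12) in the cluster at 7.1 to 9.8 Mb. The 2 arms had similar medians in PER-117 (0.20 on the short arm and 0.18 on the long arm) and in TALL-1 (0.15 and 0.16). The summed member level in PER-117 was 3675 ± 170 CPM with DMSO and 3958 ± 103 CPM with decitabine (SD, n = 3 each), and the libraries of the 2 groups did not overlap. In MOLT-16 the sum was lower with decitabine, at 2832 ± 51.9 CPM against 3147 ± 247 CPM. Its groups did not overlap either, though narrowly (2871 against 2875 CPM, the latter in the mixed library). The means went from 3808 to 3558 CPM in Loucy, 3352 to 3325 CPM in PEER and 4178 to 4360 CPM in TALL-1, with overlap.

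**Figure D4:**
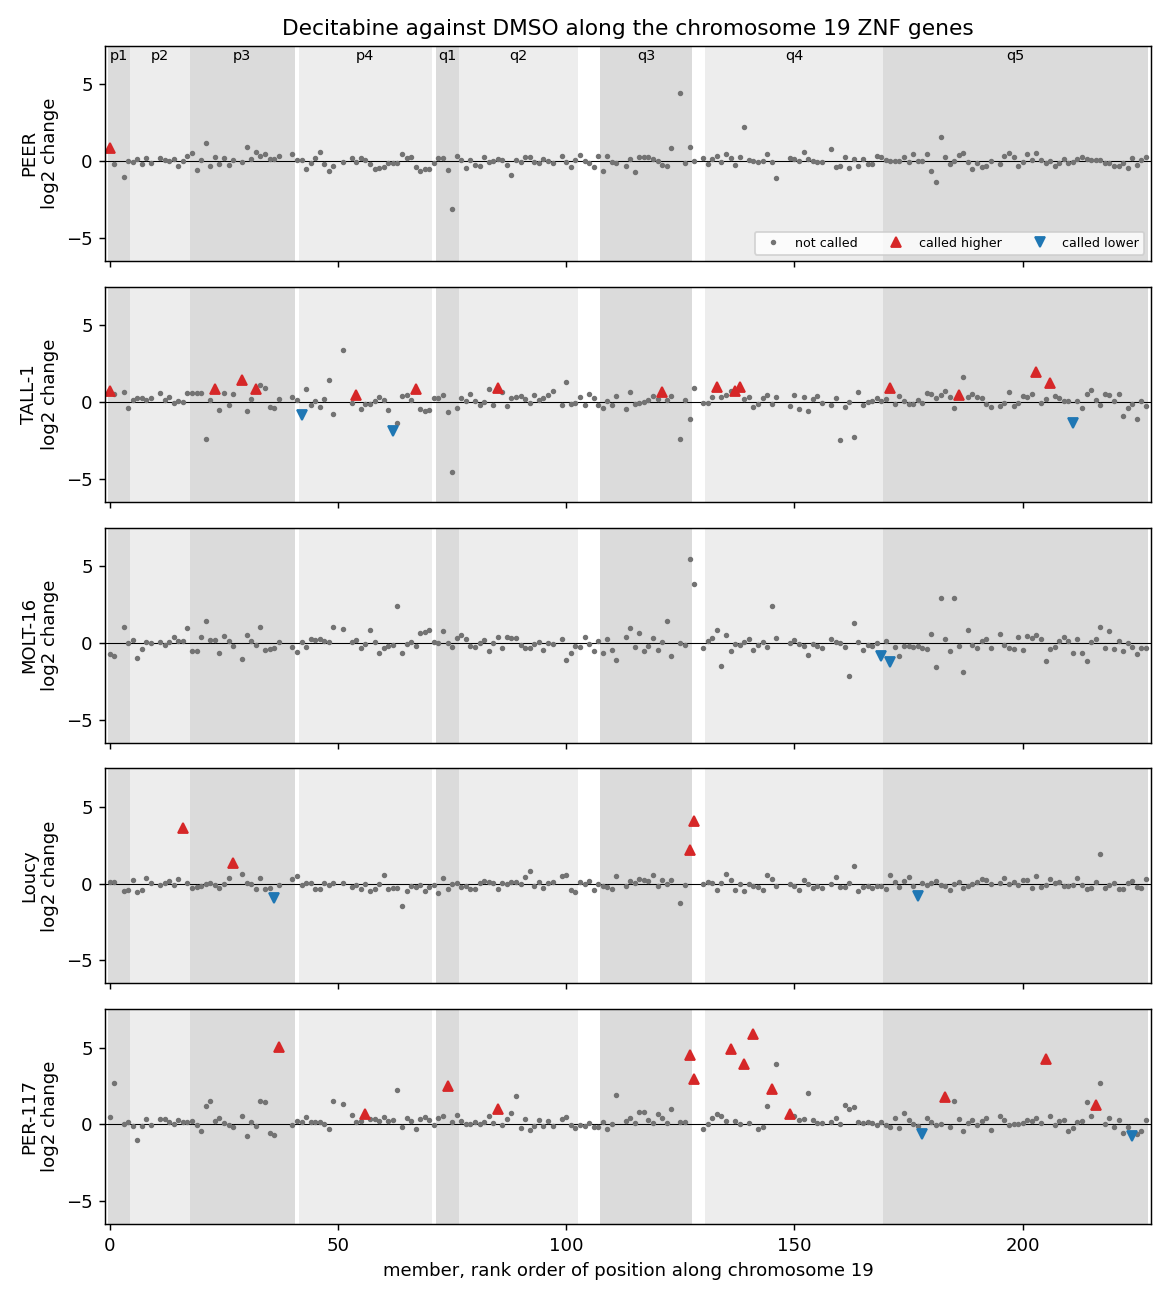
Log2 change with decitabine against DMSO (vertical axis) for each tested member in order along chromosome 19 (horizontal axis, rank), with 1 panel per line and the 9 clusters shaded and labelled p1 to q5. Triangles mark members called at adjusted p under 0.05; PER-117 has a group of upward triangles in q4, and no panel shows a whole cluster called.

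Silenced members stayed at low levels after decitabine. In PER-117, 6 of the 26 were called higher (23.1%, against 17.3% of all silenced protein-coding genes). The share was 24% for silenced ZNF genes on other chromosomes and 31.9% for other silenced protein-coding genes of chromosome 19. At least 1 read was present for 24 of the 26 with decitabine, against 12 of 26 with DMSO. The mean was above that with DMSO for 22 of the 26. These members were chosen for a low DMSO level, so these counts cannot separate a response from that choice. PER-117 was also sequenced deeper with decitabine (34914853 against 27799288 scaled reads over the group), which adds to the count with at least 1 read. None of the 26 reached 2.5 CPM, and the highest mean was 1.15 CPM. Low levels were not particular to the members. Of all 1119 silenced protein-coding genes in PER-117, 32 reached 2.5 CPM, and 0 of the 25 silenced ZNF genes on other chromosomes did. The median decitabine level was 2.29% of the highest other line for members and 0.887% for all silenced protein-coding genes. Of the 6, ZNF615, ZNF841, ZNF836 and ZNF880 belong to the cluster at 51.6 to 53.6 Mb. The others were ZNF709 on the short arm and ZNF154, a gene whose promoter is often methylated in tumours, near the end of the long arm. Leaving out DMSO library 1 or 2, or decitabine library 1 or 3, reduced the 6 calls to 2. In PEER, TALL-1 and MOLT-16 the count called higher was 0 by edgeR and by DESeq2 (1, 0 and 0 at an unadjusted p under 0.05), where 9.03%, 2.67% and 3.73% of silenced protein-coding genes were. In Loucy 1 of 4 was, against 31%.

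ZNF836 in PER-117 went from no read in 3 DMSO libraries to 1.55, 0.474 and 0.646 CPM with decitabine. Every decitabine library had reads of it, 33 in all (adjusted p = 0.000339, edgeR quasi-likelihood test). The decitabine mean was 8.26-fold the DMSO limit of 3 reads over the group. Without decitabine library 1, the highest, it was 5.19-fold that limit (adjusted p = 0.00341, same test). Such folds take the decitabine mean as observed, so its own counting error is not covered. The level reached was still 2.77% of that in untreated PEER. ZNF615 had 0.296, 0.189 and 0.922 CPM with decitabine and none before, a mean 4.35-fold the DMSO limit (adjusted p = 0.00943). Leaving out the third decitabine library ended the ZNF615 call (adjusted p = 0.0628). ZNF154 rose from none to 0.222, 0.284 and 0.369 CPM, a mean 2.70-fold the DMSO limit (adjusted p = 0.0339). The ZNF154 call was lost without any 1 of the 6 PER-117 libraries or with strand ignored. These 3 genes had reads in every decitabine library and in no DMSO library. ZNF709, ZNF841 and ZNF880 had overlapping libraries. ZNF709 was at 0.666, 0.852 and 0 CPM with decitabine (adjusted p = 0.0447), and its call ended in 11 of the single-library omissions. The ZNF880 call did not hold when replicate numbers were kept as blocks (adjusted p = 0.0512).

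ZNF562 in Loucy rose from 0, 0.0584 and 0.0683 CPM to 0.676, 0.723 and 0.725 CPM. The 3 decitabine libraries lay close together and above all DMSO libraries. In reads, 2 became 31, a ratio of 16.6 with a 95% counting interval of 4.23 to 143 (adjusted p = 0.000179). The level reached was 2.07% of that in untreated PEER. Other silenced genes had few or no reads after treatment. ZNF835 had 1 read in the 3 PER-117 decitabine libraries together and no read in those of PEER or Loucy, and ZNF471 had none in PER-117. ZNF439 had 4 reads in untreated PER-117, all in DMSO library 3, and 7 with decitabine. Without that library it had no DMSO read, and its adjusted p went from 0.846 to 0.108 (edgeR). ZNF257 in PER-117 went from 2 to 14 reads, a ratio of 5.57 (95% counting interval 1.28 to 50.5), with an adjusted p of 0.0992. Both DMSO reads lay in library 3, and without it ZNF257 was called higher (adjusted p = 0.0311).

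**Figure D5:**
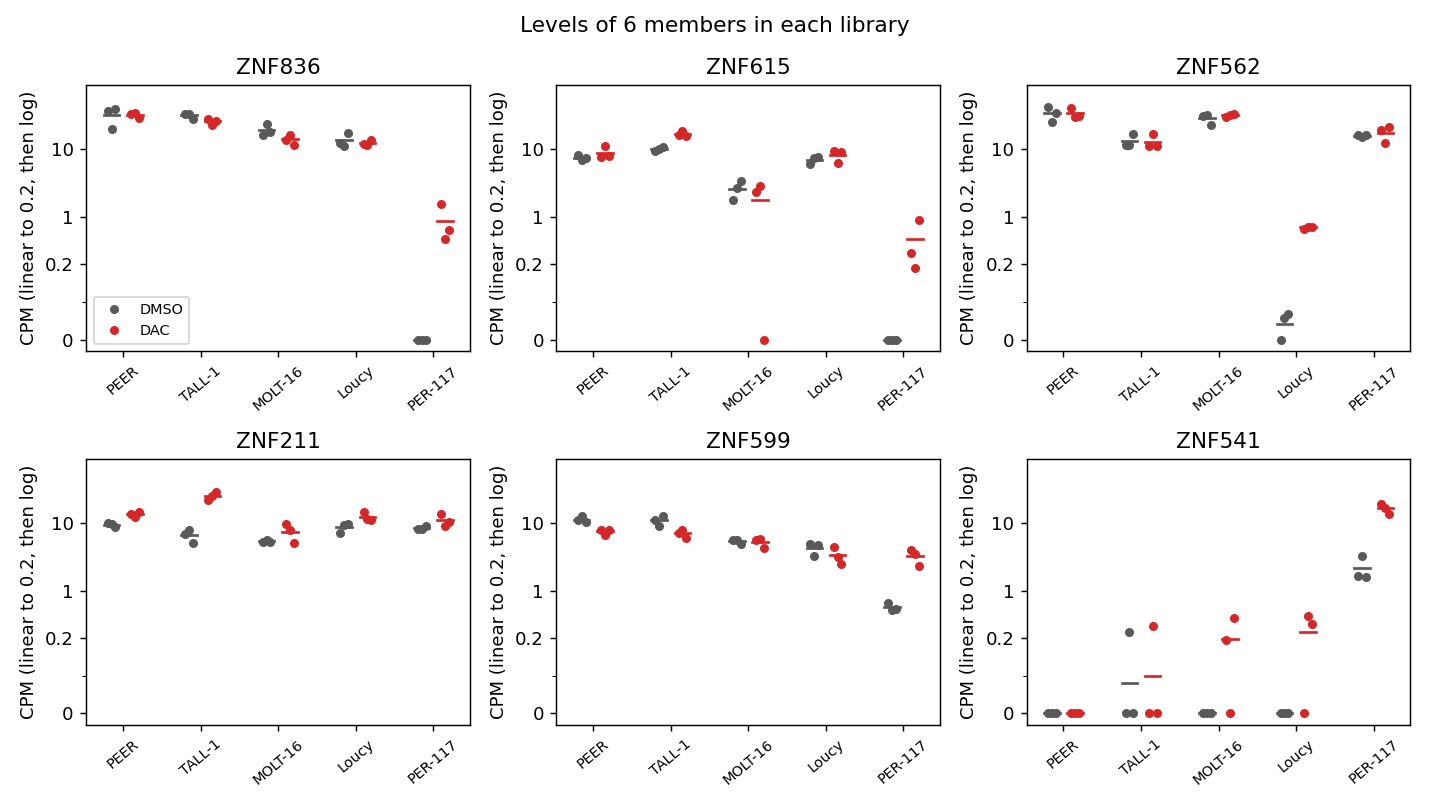
CPM of 6 members in each of the 30 libraries (points) with group means (bars), DMSO in grey and decitabine (DAC) in red, on an axis that is linear up to 0.2 CPM and logarithmic above. ZNF836 and ZNF615 are at 0 in all PER-117 DMSO libraries, ZNF562 is under 0.1 CPM in Loucy DMSO, and ZNF211 is highest in TALL-1 with decitabine.

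Larger changes in amount occurred in genes that were not silenced. ZNF541, known for a role in meiosis of male germ cells, had 1.68, 3.23 and 1.62 CPM in untreated PER-117 and 19.4, 17.0 and 13.8 CPM with decitabine. All decitabine libraries lay above all DMSO libraries, and the log2 change was 2.93 (SE 0.40, adjusted p = 3.75e-05). In the untreated other lines it was at or near 0. It also rose in Loucy, from no read to 11 reads, with the first decitabine library at 0. Its mean there was 3.88-fold the DMSO limit of 3 reads (adjusted p = 0.0295). The Loucy call did not hold when any of 5 of its 6 libraries was left out.

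ZNF599 rose in PER-117 from 0.671, 0.522 and 0.540 CPM to 4.07, 3.50 and 2.31 CPM (log2 2.49, SE 0.33, adjusted p = 3.51e-06). PER-117 had the lowest untreated level of the 5 lines. In PEER its mean went from 11.3 to 7.56 CPM and in TALL-1 from 11.1 to 7.06 CPM, neither past the threshold (adjusted p = 0.185 and 0.0912, edgeR). ZNF606 in PER-117 had 6.26, 8.76 and 5.93 CPM with DMSO and 17.5, 15.5 and 17.5 CPM with decitabine (log2 1.27, SE 0.23, adjusted p = 0.000291). ZNF470 went from 0.224, 1.15 and 0.324 CPM to 1.85, 1.70 and 2.49 CPM (log2 1.78, SE 0.46, adjusted p = 0.00978). ZNF606 and ZNF470 had no overlap between their groups, though without DMSO library 1 or 3 the ZNF470 call was lost. The highly expressed ZNF431 rose in PER-117 from 63.6 ± 2.78 to 104 ± 3.0 CPM (SD, n = 3 each; log2 0.71, adjusted p = 8.57e-05), the largest gain in CPM among called members of that line.

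TALL-1 had the other main group of rises. ZNF211 had 6.87, 7.87 and 5.19 CPM with DMSO and 22.3, 25 and 29.1 CPM with decitabine (log2 1.94, SE 0.22, adjusted p = 5.52e-07). Its decitabine libraries in all 5 lines had a higher mean than the DMSO ones, but only TALL-1 passed the threshold with all 30 libraries, and Loucy did as well without the mixed ones. ZNF844 rose from 11.2, 13.04 and 10.4 CPM to 27.4, 37.7 and 27.5 CPM (log2 1.44, SE 0.30, adjusted p = 0.00156). ZNF671 rose from 7.30, 8.61 and 8.77 CPM to 20.9, 20.1 and 16.1 CPM (log2 1.22, SE 0.27, adjusted p = 0.00262). In each of these 3 genes the lowest decitabine library lay above the highest DMSO library.

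Falls in TALL-1 were fewer. ZNF101 dropped from 131, 147 and 127 CPM to 71.7, 73.9 and 75.7 CPM (log2 -0.87, SE 0.12, adjusted p = 1.85e-05). TALL-1 had the highest untreated level of ZNF101, and its decitabine level was still above that of the other lines' DMSO means. ZNF814 had 3.86, 3.94 and 7.70 CPM with DMSO and 0.920, 2.84 and 1.91 CPM with decitabine (log2 -1.39, SE 0.36, adjusted p = 0.00929). The high DMSO value is the mixed library, and PEER itself had 15.5 to 23.8 CPM. Without that library the log2 change was -0.95 with an adjusted p of 0.13. The called fall of ZNF43 was likewise lost without it (log2 -0.79, adjusted p = 0.551).

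Among the 38 members called in any line, 4 (10.5%) rose in 2 lines and none in 3 or more. Of the 5053 genes called in any line over all those tested, 19.8% rose in at least 2 lines and 6.39% in at least 3. The difference between these shares was not tested. ZNF554 rose in PEER and TALL-1, ZNF850 in TALL-1 and PER-117, and ZNF296 and ZNF541 in Loucy and PER-117. ZNF850 went from 23.6, 24.1 and 23.3 to 42.5, 44.3 and 46.3 CPM in TALL-1, and from 6.26, 7.62 and 8.63 to 14.9, 14.9 and 14.9 CPM in PER-117. Its log2 changes in these lines were 0.91 (SE 0.17) and 0.99 (SE 0.18). In Loucy, where it was most abundant without treatment, its mean was 32.4 CPM with DMSO and 25.6 CPM with decitabine (adjusted p = 0.163, edgeR). Without the mixed libraries both ZNF554 calls were lost, with log2 changes of 0.67 in PEER (0.86 with them) and 0.60 in TALL-1 (0.73 with them).

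ZNF579 was the only member called in opposite directions (2.63% of members called in any line, against 3.11% of all genes called in any line). In TALL-1 it rose from 11.6, 8.12 and 10.4 CPM to 23.9, 17.1 and 16.8 CPM (log2 0.94, SE 0.24, adjusted p = 0.00886). In MOLT-16 it fell from 11.5, 19.1 and 12.4 CPM to 7.64, 5.38 and 4.34 CPM (log2 -1.22, SE 0.28, adjusted p = 0.0112). Neither line's groups overlapped. The MOLT-16 call was lost without decitabine library 3 or DMSO library 2. A test that the 5 responses differ passed for 16 of 213 members, against 13.6% of all genes. With the lines as replicates of the treatment, edgeR called 0 of 204 members higher and 0 lower, where 0.0578% and 0.0% of all genes were called. At an unadjusted p under 0.05 it gave 5 higher and 0 lower, and with no filter on low counts ZNF541 and ZNF211 were called higher.

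In Loucy the other called members were ZNF763, which rose from 0.987, 0.876 and 1.57 CPM to 2.97, 2.11 and 3.86 CPM (log2 1.37, SE 0.35, adjusted p = 0.00765), ZNF296, ZNF443 and ZNF787. The ZNF763 call was lost without decitabine library 3 or DMSO library 2, and the ZNF296 call without decitabine library 1 or DMSO library 2 or 3, by DESeq2 and with no filter. ZNF443 fell from 13.4 ± 3.45 to 6.92 ± 1.73 CPM and ZNF787 from 32.1 ± 4.27 to 18.0 ± 5.18 CPM (SD, n = 3 each). In MOLT-16 the other call was ZNF331, an imprinted gene, which fell from 29.3 ± 7.89 to 16.1 ± 1.95 CPM (SD, n = 3 each; adjusted p = 0.0256). That call was lost in the fit of MOLT-16 alone (adjusted p = 0.304) and in 5 of the 6 omissions of a single MOLT-16 library, all but DMSO library 3. In PER-117 the called falls were ZNF444, which carries a SCAN domain (73.8 ± 0.87 to 48.0 ± 7.27 CPM), and ZNF584 (23.9 ± 2.12 to 13.8 ± 1.52 CPM, SD, n = 3 each). The ZNF444 call was lost without any PER-117 library other than decitabine library 3, and the ZNF584 call without decitabine library 3 or DMSO library 2.

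KRAB corepressors and related silencing machinery, including genes of histone and DNA methylation, were read from a list of 29 genes, all of them tested. TRIM28, the shared scaffold, was present in every untreated line, from 96.2 ± 13.3 CPM in Loucy to 241 ± 63.9 CPM in TALL-1 (SD, n = 3 each). With decitabine it passed the threshold in Loucy, where it fell to 72.2 ± 3.43 CPM (log2 -0.41, SE 0.14, adjusted p = 0.0438). The other 4 lines had log2 changes of the same sign, from -0.30 in TALL-1 to -0.15 in MOLT-16, and their adjusted p-values were 0.17 or higher (edgeR). SETDB1 was not called in any line. The list had 3 genes higher and 7 lower in TALL-1 (all genes 6.74% and 6.12%). The 3 rises were ATF7IP (log2 0.65), KIAA1551 (0.76) and MORC3 (0.70). Among the falls, DNMT1, the maintenance DNA methyltransferase, had a log2 change of -1.39, its partner UHRF1 one of -1.31 and the remodeller HELLS one of -1.18. In MOLT-16 the DNMT1 and UHRF1 changes were 0.70 and 0.44, and in PEER, Loucy and PER-117 both were negative. None of these was called. The MOLT-16 DMSO libraries, which include a mixed one, spread widely, at 289 ± 215 CPM of DNMT1 and 18.9 ± 15.2 CPM of UHRF1 (SD, n = 3 each). The list was not read without the mixed libraries of TALL-1, MOLT-16 and PEER. PER-117 had 1 higher (ATF7IP, log2 0.45) and 2 lower (all genes 8.67% and 3.16%). By edgeR the list had 0 higher and 6 lower in Loucy (all genes 10.6% and 4.13%), 0 and 1 in MOLT-16 (all genes 2.19% and 1.01%), and 0 and 0 in PEER (all genes 3.54% and 0.961%). At an unadjusted p under 0.05 these were 0 and 7, 4 and 2, and 0 and 5. Whether these changes bear on the zinc finger genes was not tested.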

How the data were processed

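The authors deposited read counts per gene for 30 libraries (3 in each of 10 groups of line and treatment). Per the submitters' processing notes the tools were STAR 2.4.2a and DESeq2, with the hg38 build. The annotation release behind the counts was not given in the sources used here. The counts on the gene's own strand were used as deposited. Reads that mapped to several places or were ambiguous between genes were left out by that counting, so close paralogs and the 74 members that share exon sequence with another gene on the same strand are uncertain. Of 60554 identifiers, 56996 matched GENCODE release 29 names.

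All 10 groups were fitted together with edgeR 4.0.16 (R 4.3.3) by quasi-likelihood tests after filterByExpr with a minimum count of 10. The 15081 genes left were adjusted by Benjamini-Hochberg and called at an adjusted p under 0.05. A group holding 0 reads of a gene allows up to 3 reads over the group. Folds from this limit take the mean of the other group as observed, without its counting error. The limits and the 95% intervals cover counting error only. Scripts were tested on simulated data. Alternatives were DESeq2 1.42.0, other scaling, no filter, unstranded counts, own-line fits, replicate blocks, omitted libraries and another silencing threshold. In PER-117 same-numbered libraries deviated together (r = 0.109, 0.163 and 0.253). The main tests held no term for library number in any line, PER-117 included. Pairing entered only through the replicate-block alternative.

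Genes were named by rule: for each line the largest called changes of at least 2-fold at 2 CPM or more with separate libraries, up to 5 silenced members highest elsewhere, the 5 most abundant, the 5 whose responses differed most, and any called in opposite directions. Others named were chosen after their values were seen. The members and lists were chosen with earlier results of these data known.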

Additional observations from a re-analysis of the deposited data

Results flagged for a closer look

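For 16 members the response to decitabine differed between the 5 lines by a test of that difference (edgeR quasi-likelihood F test, adjusted p under 0.05), against 13.6% of all genes. The smallest adjusted p-values were those of ZNF599 (3.84e-05), ZNF101 (0.00066), ZNF850 (0.0012), ZNF579 (0.0014), ZNF211 (0.00213) and ZNF836 (0.00353). These 6 passed under all 36 alternatives that gave a value. ZNF431 (0.00382) was lost with no filter on low counts and ZNF562 (0.00701) with strand ignored.

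The remaining 8 were lost in at least 2 of their alternatives. They were ZNF296 (0.0227), ZNF432 (0.0241), ZNF554 (0.0242), ZNF493 (0.0246), ZNF614 (0.0291), ZNF606 (0.0333), ZNF671 (0.0355) and ZNF331 (0.0462). ZNF331 passed in 20 of 36 alternatives. ZNF599 rose in PER-117 with a log2 change of 2.49, and its other 4 changes ranged from -0.63 to -0.01.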

How the results depend on the processing

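Of 43 calls of a member in a line, 16 held under every alternative, and no called change reversed. With all alternatives, counts of silenced members and of members differing between untreated lines stayed within 1.5 times. In PEER the 1 member higher became 0 with no filter, in the fit of its own line and with the replicate block, and 2 with DESeq2 (0 to 1 without single libraries, 0 without decitabine library 2 or 3 or DMSO library 1). TALL-1's 15 higher became 7 with no filter and 9 with the block (8 to 16 without single libraries), and its 3 lower became 1 with unstranded reads, without the mixed libraries and in its own fit (1 to 4; 1 without decitabine library 1 or DMSO library 3). MOLT-16's 0 higher became 2 with no filter, 1 with unstranded reads, 5 without the mixed libraries and 1 with DESeq2 (0 to 5; 5 without DMSO library 3), and its 2 lower became 4 with no filter, 11 without the mixed libraries, 0 in its own fit and 4 with DESeq2 (0 to 8; 8 without DMSO library 3). Loucy's 4 higher became 7 with other scaling, 9 without the mixed libraries and 10 with DESeq2 (2 to 5; 2 without decitabine library 3 or DMSO library 2), and its 2 lower became 6 without the mixed libraries and in its own fit (2 to 4). PER-117's 14 higher became 21 without the mixed libraries (9 to 17 without single libraries), and its 2 lower became 3 without the mixed libraries and 5 in its own fit (0 to 2). The 16 members whose response differed became 34 without the mixed libraries and 30 with DESeq2 (12 to 33; 33 without MOLT-16 DMSO library 3). The 6 silenced PER-117 members called higher ranged from 2 to 7, and the 1 in Loucy became 0 with unstranded reads. With lines as replicates, 0 higher became 2 with no filter. Shares of all genes were not computed under these alternatives, so a change in a member count may be general to all genes. The cause of these changes was not tested.

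The replicate block kept 13 of the 14 rises in PER-117, the line whose same-numbered libraries deviated together, and lost ZNF880 there. In the other 4 lines the match by number was partial or absent. The decitabine libraries that correlated best with their own number were 2 of 3 in PEER and in MOLT-16, 1 in Loucy and 0 in TALL-1. The first PEER pair had r = 0.257. The labels do not say whether libraries were paired. Depth limits the low levels: 3 reads over a group correspond to 0.0639 CPM in Loucy DMSO and 0.251 CPM in MOLT-16 DMSO, so a silenced MOLT-16 member is less firmly low than a Loucy one.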
